A study of Mus musculus with 2 samples.

Results

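The forkhead genes Foxo1, Foxo3, Foxo4, Foxp1, Foxp3, Foxp4, Foxn3, Foxj2, Foxk1 and Foxm1 were followed in macrophages sorted from the bone marrow and the spleen of leukaemic mice. They were taken by gene symbol from the gene tables of both libraries, and all 10 were found among the 16428 genes with a read in at least 1 library. All 10 also passed the floor on low values, 1 CPM together with 10 reads in either library, as did 12970 genes in all. CPM is a gene's read count scaled to a common library size. The mice were C57BL/6J, aged 6 to 8 weeks, and received 500000 GFP+ leukaemia cells each without irradiation. The leukaemia was driven by the MLL-AF9 fusion oncogene, and the animals lived for 25 to 30 days. At day 15 macrophages were sorted, and 1 RNA-seq library was made from bone marrow and 1 from spleen. Both groups therefore carried the same leukaemia, and healthy mice were not analysed here. The sources used here do not give the sorting gate or the number of mice behind each library. With 1 library per tissue there was no replicate check, no test was possible, and every interval below covers counting error only.

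Forkhead proteins are transcription factors that bind DNA through a winged-helix domain. FoxO proteins are held out of the nucleus when AKT kinases phosphorylate them after growth factor or antigen receptor signalling, so that 14-3-3 proteins bind them, and they enter it when the signal falls. In lymphocytes nuclear FoxO1 turns on homing and survival genes, and in B cell precursors the recombinase genes. FoxP proteins pair with one another and mostly repress transcription. Foxp3 defines regulatory T cells, and Foxp1 serves B cell development, T cell quiescence and monocyte differentiation. Foxm1 drives genes of the G2 and M phases of the cell cycle together with the MuvB complex.

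The part of the domain that reads DNA is a recognition helix shared by the whole family, and its codons can be compared between the genes. The stretches of 8 of the genes are given here, each 5′ to 3′ and of 36 bases, from GENCODE M21 mouse transcripts (GRCm38). Capitals mark the codons of the arginine, histidine and asparagine that they share.
Foxo3: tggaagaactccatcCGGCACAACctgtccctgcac
Foxo4: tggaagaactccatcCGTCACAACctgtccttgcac
Foxp3: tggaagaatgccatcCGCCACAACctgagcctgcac
Foxp4: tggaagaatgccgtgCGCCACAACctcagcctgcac
Foxn3: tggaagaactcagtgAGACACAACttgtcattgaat
Foxj2: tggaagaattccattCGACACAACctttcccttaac
Foxk1: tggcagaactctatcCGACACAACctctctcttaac
Foxm1: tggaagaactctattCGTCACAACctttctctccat
Foxo3 and Foxo4 were the closest pair of these, with 34 of 36 bases alike, and Foxp3 and Foxp4 shared 33. Likeness over so short a stretch did not always follow family. Foxo1, not printed here, shared 31 bases with Foxj2, 30 with Foxo3 and 29 with Foxo4. Foxp3 shared 31 bases with Foxo3 and 27 with Foxp1. Translated, the stretches of Foxo3, Foxo4 and Foxm1 matched at 12 of 12 residues.

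Both libraries held transcripts that mark cells other than macrophages, and the values below are those of each library as a whole. The 16 macrophage markers, such as Csf1r and Adgre1 (F4/80), were all detected in both and summed to 679.9 CPM in the marrow and 1433 CPM in the spleen. The 16 markers of neutrophils and granulocyte precursors summed to 48665 CPM in the marrow and 2293 CPM in the spleen. Ly6g was listed for neither library and set to 0, and whether the counting annotation held it is not known. The 15 B cell markers summed to 707 CPM in the marrow and 6147 CPM in the spleen. The 17 T cell markers summed to 328 CPM in the marrow and 2334 CPM in the spleen, and no marker of either list was at 0. The 11 stem and progenitor markers summed to 1647 CPM in the marrow and 379.9 CPM in the spleen, where Mecom was at 0. In such bulk libraries, fewer cells of a type and less RNA per cell cannot be told apart.

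Of the 10 forkhead genes, 1 was at least 2-fold higher in the marrow, 5 were at least 2-fold higher in the spleen and 4 lay within 2-fold. Among all 12970 measured genes, 14.1% passed 2-fold towards the marrow and 14.6% towards the spleen. Foxm1 was the gene higher in the marrow. Foxp3, Foxo1, Foxj2, Foxp1 and Foxn3 were the genes higher in the spleen. The median log2 ratio, bone marrow minus spleen on log2(CPM + 1), was -0.92 over the 10 genes, against 0.03 over all measured genes. In reads, the 10 genes together had 6181 in the marrow and 10021 in the spleen. All 10 counting intervals of the CPM ratio left out equal levels, 2 with bone marrow higher and 8 with spleen higher.

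**Figure D1:**
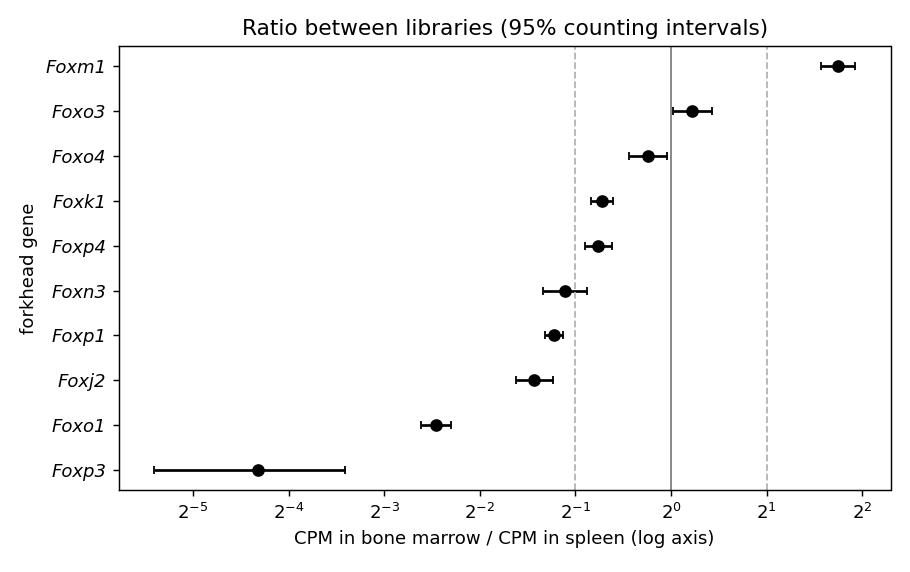
Ratio of CPM in the marrow to CPM in the spleen for each forkhead gene, on a log axis with base 2, with exact 95% counting intervals as bars. The solid line marks equal levels and the dashed lines mark 2-fold. Foxm1 lies to the right of the upper dashed line at 3.36, and Foxp3 lies farthest to the left at 0.050.

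Among the FoxO genes, Foxo1 was the one whose level differed most between the tissues. Foxo1, the FoxO factor of lymphocyte homing and B cell development, had 406 reads in the marrow and 2005 reads in the spleen. That was 43.2 CPM in the marrow and 237 CPM in the spleen, 5.49-fold lower in the marrow (95% interval 4.93 to 6.13). On the log2(CPM + 1) scale its ratio was -2.43, and 2.51% of measured genes had a lower one.

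Foxo3 and Foxo4 stayed close to equal levels. Foxo3, a factor of stress resistance and of erythroid and stem cell maintenance, had 456 reads (48.5 CPM) in the marrow and 351 reads (41.5 CPM) in the spleen. It was 1.17-fold higher in the marrow (1.01 to 1.35), so the interval only just left out equal levels. Foxo4, the X-linked member, had 406 reads (43.2 CPM) in the marrow and 431 reads (51.0 CPM) in the spleen, 1.18-fold lower in the marrow (1.03 to 1.36). Foxo6, the remaining FoxO gene, which is known mainly from brain, had 1 read in each library. The read of Foxo6 did not reach the floor, and it could not be compared at this depth.

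Levels of different genes were compared per length, as the deposited RPKM, which is the read count divided by gene length and by the size of the library. In bone marrow Foxo3 made up 43.9% of the summed FoxO RPKM of 37.4, Foxo4 35.7% and Foxo1 20.3%. In spleen Foxo1 made up 58.3% of a summed RPKM of 74.9, Foxo4 22.01% and Foxo3 19.6%. The lead of Foxo3 in the marrow rests on its deposited length of 2889 bases. With the longest annotated coding transcript of each gene, a choice made after seeing the data, Foxo4 led in the marrow with 53.1%, before Foxo3 with 27.5% and Foxo1 with 19.4%. In the spleen Foxo1 still led, with 55.2%. The ratio of Foxo1 to Foxo3 in RPKM was 0.463 in the marrow and 2.97 in the spleen. Between the tissues that ratio was 6.42-fold lower in the marrow (5.36 to 7.67), a value that does not depend on how the libraries were scaled. The ratio of Foxo1 to Foxo4 was 4.65-fold lower in the marrow (3.90 to 5.55).

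**Figure D2:**
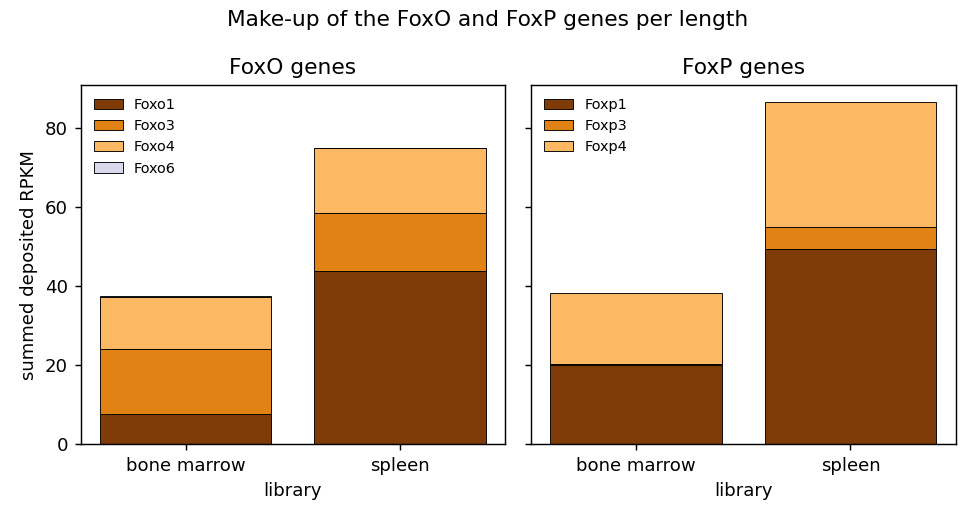
Summed deposited RPKM of the FoxO genes and of the FoxP genes in each library, with 1 bar per library and each gene as a segment. The FoxO sum is 37.4 in the marrow and 74.9 in the spleen, with the Foxo1 segment at 7.60 in the marrow and 43.7 in the spleen. The FoxP sum is 38.2 in the marrow and 86.6 in the spleen. The segments of Foxo6, and of Foxp3 in the marrow, are too thin to see.

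All 3 FoxP genes with a read were lower in the marrow, and only Foxp4 of them lay within 2-fold. Foxp2, the remaining FoxP gene, had no read in either library. Foxp1 had 1392 reads (148 CPM) in the marrow and 2923 reads (346 CPM) in the spleen, 2.34-fold lower in the marrow (2.19 to 2.49). Foxp4, a FoxP factor expressed in many tissues, had 695 reads (73.9 CPM) in the marrow and 1059 reads (125 CPM) in the spleen, 1.69-fold lower in the marrow (1.54 to 1.87). The ratio of Foxp1 to Foxp4 per length was 1.13 in the marrow and 1.56 in the spleen, 1.38-fold lower in the marrow (1.23 to 1.55).

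Foxp3 showed the widest difference of the 10, on the fewest reads. It had 10 reads (1.06 CPM) in the marrow and 180 reads (21.3 CPM) in the spleen, 20.02-fold lower in the marrow (10.6 to 42.5). Its log2 ratio of -3.43 was undercut by 0.694% of measured genes. In the deposited coverage column, reads covered 12.1% of its length in the marrow and 72.1% in the spleen. In the other 9 genes the covered share lay between 92.5% and 99.6% in each library. In the GENCODE M21 annotation, exons of Foxp3 overlap exons of Ccdc22 and Ppp1r3f on the opposite strand, and whether counting used strand is not given in the sources used here. Ccdc22, which encodes a subunit of an endosomal sorting complex, had 515 reads in the marrow and 220 reads in the spleen. Ppp1r3f had 27 reads in the marrow and 52 reads in the spleen. Flicr, a noncoding RNA of the Foxp3 locus on the same strand, had 0 reads in the marrow and 9 reads in the spleen. Their part in the Foxp3 counts was not tested.

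Promoters were searched for the letters that forkhead proteins are known to bind, and the ones shown, of Foxp1 and Foxp3, were picked among those with a match. RefSeq (GRCm38.p6) had 10 promoters for 7 of the 10 genes, and the 250 bases before each start were searched on both strands for the forkhead core TGTTTA. It occurred in 3 of 3 Foxp1 promoters, 1 of 2 Foxp3 promoters and none of the other 5, and in 12.03% of all 32851 promoters of this length. The longer word TGTTTAC, which contains the core, occurred in 0 of the 10 and in 3.17% of all promoters. Each sequence below runs 5′ to 3′ on the gene's strand, with the core or its reverse complement in capitals. Foxo1, Foxj2 and Foxn3, also past 2-fold towards the spleen, had no match. A match describes letters in the window and is not evidence of binding.
Foxp1, chr6:99266516-99266765, minus strand: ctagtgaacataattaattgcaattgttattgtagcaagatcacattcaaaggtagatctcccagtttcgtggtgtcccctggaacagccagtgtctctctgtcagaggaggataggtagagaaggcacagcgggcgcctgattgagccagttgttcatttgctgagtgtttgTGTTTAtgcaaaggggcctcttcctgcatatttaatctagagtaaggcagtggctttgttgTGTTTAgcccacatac
Foxp3, chrX:7579426-7579675, plus strand: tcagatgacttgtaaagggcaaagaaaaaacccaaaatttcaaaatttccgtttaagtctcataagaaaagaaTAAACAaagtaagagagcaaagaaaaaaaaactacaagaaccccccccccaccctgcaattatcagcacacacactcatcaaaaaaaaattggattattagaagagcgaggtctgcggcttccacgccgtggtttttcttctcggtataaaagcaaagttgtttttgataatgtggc

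Foxj2, Foxn3 and Foxk1 were also lower in the marrow. Foxj2, a transcriptional activator of broad expression, had 312 reads (33.2 CPM) in the marrow and 756 reads (89.4 CPM) in the spleen, 2.69-fold lower in the marrow (2.36 to 3.08). Foxn3, a repressor also called checkpoint suppressor, had 237 reads (25.2 CPM) in the marrow and 460 reads (54.4 CPM) in the spleen. Its 2.16-fold difference had an interval of 1.84 to 2.54, which included the 2-fold limit, and with a pseudocount of 5 its log2 ratio was -0.98. Foxk1, which with Foxk2 represses autophagy genes and promotes glycolysis, had 1029 reads (109 CPM) in the marrow and 1525 reads (180.3 CPM) in the spleen. It was 1.65-fold lower in the marrow (1.52 to 1.79), within the 2-fold limit.

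Their closest relatives did not shift by the same amount. Foxk2 was at 102 CPM in the marrow and 73.9 CPM in the spleen, so that the ratio of Foxk1 to Foxk2 per length was 0.726 in the marrow and 1.65 in the spleen. That ratio was 2.27-fold lower in the marrow (1.99 to 2.58). Foxj3 was at 50.4 CPM in the marrow and 73.5 CPM in the spleen, and the ratio of Foxj2 to Foxj3 was 1.85-fold lower in the marrow (1.54 to 2.22). Foxn2 was at 79.1 CPM in the marrow and 95.3 CPM in the spleen, and the ratio of Foxn3 to Foxn2 was 1.79-fold lower in the marrow (1.48 to 2.17). All 3 relatives lay within 2-fold themselves.

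Of 34 further forkhead genes, 18 had no read in either library and 6 passed the floor. Besides Foxk2, Foxj3 and Foxn2 these were Foxd2, Foxd4 and Foxr1, all at low levels. Foxd4 had 41 reads in the marrow and 6 in the spleen, 6.14-fold more in CPM (2.59 to 17.7). Foxr1 had 2 reads in the marrow and 13 in the spleen, a bone marrow to spleen ratio of 0.138 with an interval of 0.0152 to 0.611. Foxd2 had 28 reads in the marrow and 9 reads in the spleen, 2.80-fold more in CPM (1.28 to 6.74). Its log2(CPM + 1) ratio of 0.95 kept it within 2-fold, and with a pseudocount of 0.1 it passed. The 6 genes had a median log2 ratio of 0.09.

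Foxm1 was the only one of the 10 genes past 2-fold towards the marrow. It had 1238 reads (132 CPM) in the marrow and 331 reads (39.1 CPM) in the spleen, 3.36-fold higher in the marrow (2.98 to 3.81). On the log2 scale its ratio was 1.72, and 93.7% of measured genes had a lower one. Genes of the FoxM1-MuvB complex and of G2 and M phase lay on the same side. Of 35 such genes, 29 were at least 2-fold higher in the marrow and 0 in the spleen, against 14.1% and 14.6% of all measured genes. The median log2 ratio was 1.89, against 0.03 over all measured genes.

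Mybl2, which encodes B-Myb, the partner of FoxM1 on MuvB, was at 139 CPM in the marrow and 21.9 CPM in the spleen. The mitotic cyclin Ccnb1 was at 149 CPM in the marrow and 28.1 CPM in the spleen, the mitotic kinase Plk1 at 130 CPM in the marrow and 27.3 CPM in the spleen, and the spindle checkpoint kinase Ttk at 46.7 CPM in the marrow and 8.28 CPM in the spleen. Top2a, the topoisomerase of dividing cells, was at 862 CPM in the marrow and 192 CPM in the spleen, and the proliferation marker Mki67 at 848 CPM in the marrow and 298 CPM in the spleen. The core MuvB subunits moved less. Lin9, Lin37, Lin52, Lin54 and Rbbp4 all lay within 2-fold, with log2 ratios of 0.71, -0.14, 0.14, 0.58 and 0.91.

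Relative to those genes together, the intervals of the Foxm1 share overlapped between the tissues. It had 23.6 reads per 1000 reads of the 35 genes in the marrow (22.3 to 25.0) and 22.8 in the spleen (20.4 to 25.4). Set against single genes the ratios differed. Foxm1 per Mybl2 was 1.89-fold lower in the marrow (1.55 to 2.32) and Foxm1 per Ccnb1 was 1.57-fold lower (1.31 to 1.90), whereas Foxm1 per Mki67 was 1.18-fold higher in the marrow (1.04 to 1.35). Markers of granulocyte precursors and of progenitors were higher in the same library. Of 15 measured granulocyte markers 15 were at least 2-fold higher in the marrow, as were 8 of 11 progenitor markers and 14.1% of all measured genes. The part of granulocyte precursors, progenitors and leukaemia cells in the Foxm1 level was not tested.

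Per length, Foxm1 led the 10 genes in the marrow and Foxp1 led them in the spleen. In bone marrow the deposited RPKM was 29.3 for Foxm1, 20.1 for Foxp1, 17.8 for Foxp4, 16.4 for Foxo3, 14.3 for Foxk1 and 13.3 for Foxo4. It was 9.43 for Foxn3, 7.60 for Foxo1, 6.47 for Foxj2 and 0.271 for Foxp3. Poisson 95% intervals of neighbours in this order overlapped from Foxp1 down to Foxo4, and again from Foxn3 down to Foxj2. Foxm1, Foxo4 and Foxj2 were separated from the gene that followed each of them.

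In spleen the RPKM was 49.3 for Foxp1, 43.7 for Foxo1, 31.6 for Foxp4, 24.7 for Foxk1, 21.3 for Foxn3 and 18.2 for Foxj2. It was 16.5 for Foxo4, 14.7 for Foxo3, 9.12 for Foxm1 and 5.68 for Foxp3. Neighbours overlapped from Foxn3 down to Foxo3, and the other neighbours were separated. Foxo1 thus stood in place 8 in the marrow and place 2 in the spleen, and Foxm1 in place 1 in the marrow and place 9 in the spleen. Among all measured genes, 41.5% had a lower RPKM than Foxo1 in the marrow and 85.3% in the spleen. The deposited length bears on this order. It equals the length of an annotated GENCODE M21 coding transcript for 4 of the 10 genes, and a longer coding transcript is annotated for 6. Foxo3 was given 2889 bases where the longest has 6848, Foxn3 2611 where it has 7705, and Foxo1 5552 where it has 8665. With the longest lengths Foxm1 still led in the marrow and Foxp1 in the spleen, and Foxo1 stood in place 8 in the marrow and place 3 in the spleen.

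**Figure D3:**
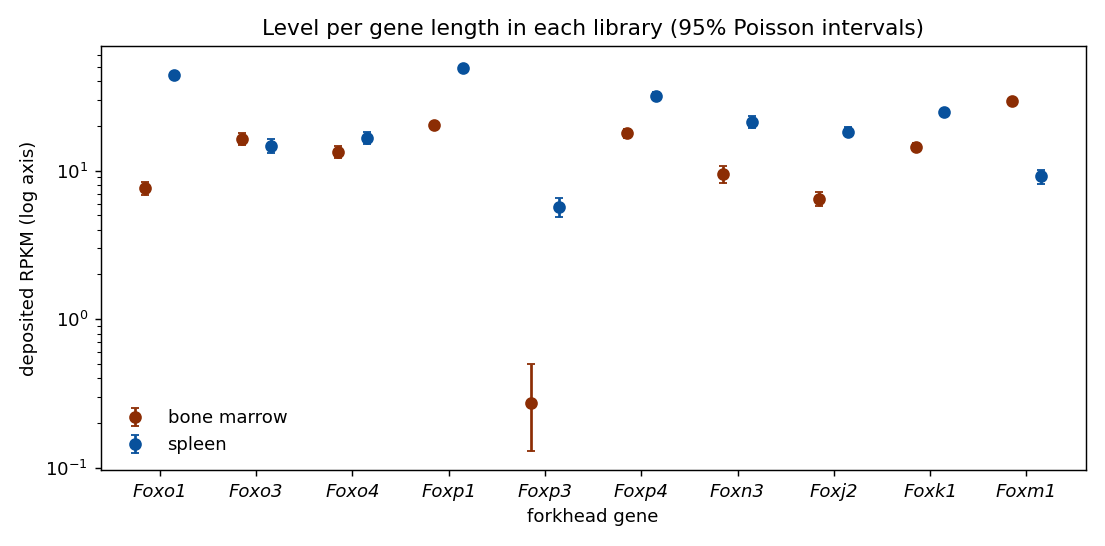
Deposited RPKM of each forkhead gene on a log axis, with bone marrow on the left and spleen on the right of each pair and Poisson 95% intervals of the read count as bars. Foxp3 sits lowest in both libraries, at 0.271 in the marrow and 5.68 in the spleen. The pairs of Foxo3 and Foxo4 lie nearly level.

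Of 26 PI3K-AKT pathway genes, 0 were at least 2-fold higher in the marrow, 4 were higher in the spleen and 22 lay within 2-fold, and the median log2 ratio was -0.31. The count towards the spleen is near the background of 14.6% of all measured genes. Akt1, the kinase that phosphorylates FoxO proteins, was at 342 CPM in the marrow and 207 CPM in the spleen, and Akt2 at 149 CPM in the marrow and 140.5 CPM in the spleen. Pik3cd, the leukocyte PI3K catalytic subunit, was at 355 CPM in the marrow and 700.4 CPM in the spleen. The 4 genes past 2-fold, given as values, were Rictor at 54.9 CPM in the marrow and 135 CPM in the spleen, Pik3r5 at 85.8 CPM in the marrow and 187 CPM in the spleen, Phlpp2 at 16.9 CPM in the marrow and 39.0 CPM in the spleen and Pik3r3 at 0.744 CPM in the marrow and 4.14 CPM in the spleen. Rictor belongs to the mTORC2 complex that activates AKT, Phlpp2 dephosphorylates AKT, and Pik3r5 and Pik3r3 are regulatory subunits of PI3K.

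Of 26 proteins that bind or modify FoxO, 23 lay within 2-fold, 1 was higher in the marrow and 2 in the spleen, against 14.1% and 14.6% of all measured genes, and the median log2 ratio was 0.06. The 14-3-3 gene Ywhaz was at 675 CPM in the marrow and 631 CPM in the spleen, and Ywhae at 556 CPM in the marrow and 311 CPM in the spleen. Skp2, the ubiquitin ligase subunit that targets FoxO1, was at 33.8 CPM in the marrow and 15.3 CPM in the spleen. Sfn, the 14-3-3 sigma gene, was at 12.3 CPM in the marrow and 43.0 CPM in the spleen, and the acetyltransferase Crebbp at 56.8 CPM in the marrow and 136 CPM in the spleen.

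Known FoxO target genes passed 2-fold more often towards the spleen. Of 32 such genes, 4 were at least 2-fold higher in the marrow, 14 were higher in the spleen and 14 lay within 2-fold, and the median log2 ratio was -0.90. The count towards the marrow is near the background of 14.1% and was 2 with a pseudocount of 5. Towards the spleen the background is 14.6% of all measured genes. Rictor, named above among the PI3K-AKT genes, also counts in the 14, and Ccr7 is on the dendritic cell list as well. Ccr7, S1pr1 and Klf2, targets that guide lymphocyte traffic, were at least 2-fold lower in the marrow. Ccr7, the lymph node homing receptor, was at 8.29 CPM in the marrow and 264 CPM in the spleen. S1pr1, the receptor for lymphocyte egress, was at 15.2 CPM in the marrow and 289.6 CPM in the spleen, and its activator Klf2 at 99.4 CPM in the marrow and 423 CPM in the spleen. Il7r, the IL-7 receptor chain, was at 45.4 CPM in the marrow and 151 CPM in the spleen.

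FoxO targets of the cell cycle and of stress did not all share a direction. In the whole target list, 14 genes passed 2-fold towards the spleen and 4 towards the marrow. Among the 14, Sesn3 was at 10.6 CPM in the marrow and 64.7 CPM in the spleen. Trp53inp1 was at 82.0 CPM in the marrow and 304 CPM in the spleen. Sesn1 was at 42.7 CPM in the marrow and 126 CPM in the spleen. Cdkn1b, the cell cycle inhibitor p27, was at 66.9 CPM in the marrow and 159 CPM in the spleen, and the thioredoxin inhibitor Txnip at 226 CPM in the marrow and 498 CPM in the spleen. The cell cycle inhibitor Cdkn1a (p21) was at 22.8 CPM in the marrow and 13.2 CPM in the spleen, 1.72-fold higher in the marrow (1.36 to 2.18) and within 2-fold. Gadd45a, a growth arrest gene, was at 29.2 CPM in the marrow and 13.01 CPM in the spleen, past 2-fold. Bcl6, a germinal centre repressor, was at 49.2 CPM in the marrow and 102 CPM in the spleen. Sod2 and Cat detoxify reactive oxygen, and both lay within 2-fold. Sod2 was at 68.3 CPM in the marrow and 54.2 CPM in the spleen, and Cat at 126 CPM in the marrow and 154 CPM in the spleen. Ccnd1, which FoxO proteins are known to repress, also counts in the 14, so the list pools activated and repressed targets. It was at 22.5 CPM in the marrow and 255 CPM in the spleen.

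The recombinase genes Rag1 and Rag2, FoxO1 targets of B cell precursors, lay on the other side from Foxo1. Rag1 was at 49.0 CPM in the marrow and 11.2 CPM in the spleen, 4.36-fold higher in the marrow (3.49 to 5.50). Rag2 had 52 reads in the marrow and 6 reads in the spleen. Besides Gadd45a, the other target past 2-fold on that side was Cited2 at 176 CPM in the marrow and 69.8 CPM in the spleen. The list of B cell precursor markers includes Rag1, Rag2 and Il7r. Of its 11 members, 9 were at least 2-fold higher in the marrow and 1 in the spleen. Over all measured genes these shares were 14.1% and 14.6%. Igll1 had 444 reads in the marrow and 1 read in the spleen. The part of B cell precursors in the Rag levels was not tested.

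The median lymphocyte marker was lower in the marrow by more than Foxo1 and Foxp1. The 15 B cell markers and 17 T cell markers were all at least 2-fold lower in the marrow, with median log2 ratios of -2.86 and -3.04. Per 1000 reads of the B cell markers, Foxo1 had 61.0 reads in the marrow (55.1 to 67.5) and 38.6 in the spleen (36.9 to 40.3). Foxp1 had 209 in the marrow (197 to 222) and 56.2 in the spleen (54.1 to 58.4). Per 1000 reads of the T cell markers, Foxo1 had 132 reads in the marrow (118 to 146) and 102 in the spleen (97.0 to 106). Both genes were thus higher in the marrow when counted against lymphocyte markers, although lower in CPM. Dendritic cell markers moved with them too, with 8 of 12 at least 2-fold lower in the marrow and a median log2 ratio of -2.41. Macrophage markers had 9 of 16 members at least 2-fold lower in the marrow and a median of -1.13. Over all measured genes 14.6% were at least 2-fold lower in the marrow. How much each cell type gave to the Foxo1 and Foxp1 reads was not tested.

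Regulatory T cell genes lay on the side of Foxp3. Of 26 genes, 18 were at least 2-fold higher in the spleen and 0 in the marrow, and the median log2 ratio was -1.40. Over all measured genes 14.6% passed 2-fold towards the spleen and 14.1% towards the marrow. The 18 became 11 with a pseudocount of 5, where the median was -0.87, and 11 with a floor of 10 CPM. Ctla4, the inhibitory receptor, was at 2.23 CPM in the marrow and 24.7 CPM in the spleen, and Izumo1r, the folate receptor 4 gene of these cells, at 1.91 CPM in the marrow and 28.4 CPM in the spleen. Il2ra, which encodes CD25, was at 9.67 CPM in the marrow and 23.8 CPM in the spleen. Ikzf2, which encodes Helios and is also made by progenitors, was at 45.7 CPM in the marrow and 42.1 CPM in the spleen. Gpr83 had 0 reads in the marrow, which allows up to 0.319 CPM, and 32 reads in the spleen.

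Counted per 1000 reads of the 26 regulatory T cell genes, Foxp3 had 2.94 reads in the marrow (1.41 to 5.41) and 23.6 in the spleen (20.2 to 27.3). Set against T cell markers it was lower in the marrow as well. It had 3.24 reads per 1000 reads of the 17 T cell markers in the marrow (1.55 to 5.97) and 9.12 in the spleen (7.83 to 10.6). Its ratio to Cd3e was 2.40-fold lower in the marrow (1.23 to 5.23). Against Cd4 the ratio was 1.69-fold lower in the marrow, with an interval of 0.878 to 3.66 that included no difference. Against Ctla4 it was 1.81-fold lower in the marrow, with an interval of 0.789 to 4.41 that also included no difference. Of the 3403 marrow reads of the regulatory T cell list, 1457 were of Il2rb, a cytokine receptor gene that other lymphocytes share.

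Erythroid markers were set beside Foxo3 because of its role in red cell maturation. Of 12 such markers, 1 was at least 2-fold higher in the marrow and 1 in the spleen. Over all measured genes these shares were 14.1% and 14.6%. The median log2 ratio of the erythroid markers was -0.06. Foxo3 had 131 reads per 1000 reads of those markers in the marrow (118 to 144) and 175 in the spleen (156 to 196).

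**Figure D4:**
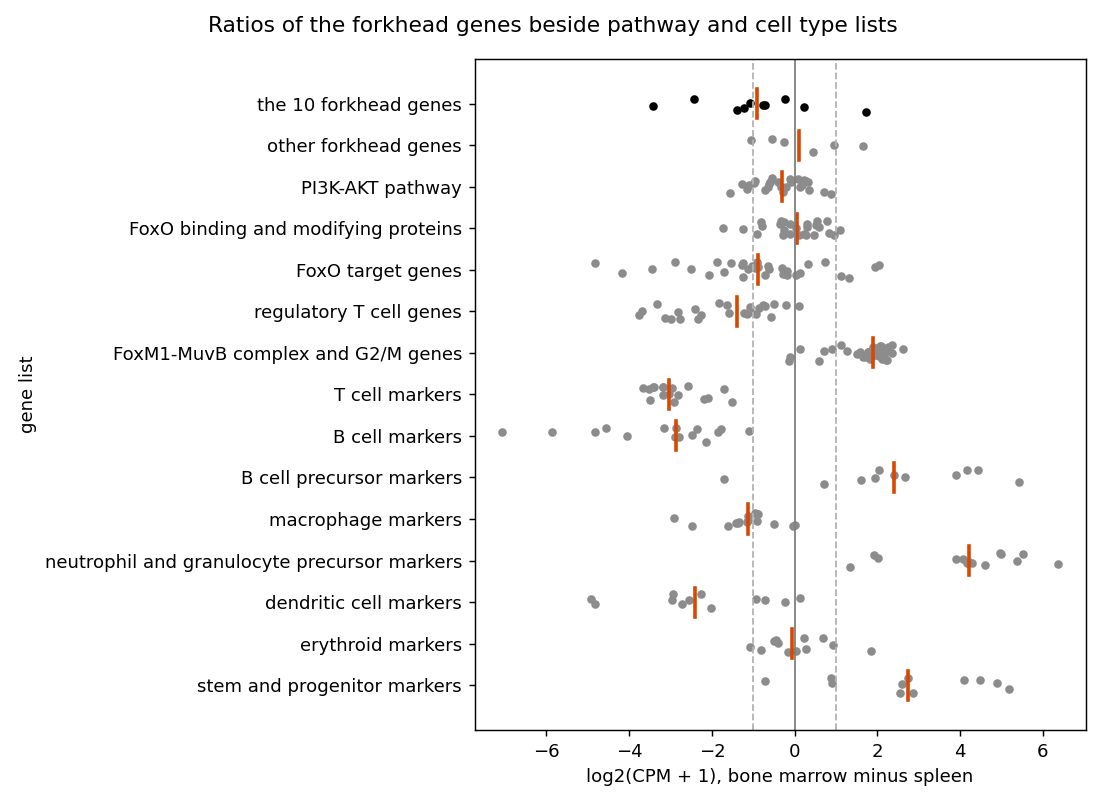
Log2 ratio, bone marrow minus spleen on log2(CPM + 1), of each measured gene in the forkhead set and in the pathway and cell type lists, with 1 point per gene and vertical bars at list medians. Dashed lines mark 2-fold in each direction. The 10 forkhead genes run from -3.43 to 1.72, the FoxM1-MuvB and G2/M genes have a median of 1.89, and the T cell markers have a median of -3.04.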

How the data were processed

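Per the labels' protocols, total RNA of sorted macrophages went into standard Illumina libraries. Per the file headers, the authors deposited the count of uniquely placed reads for every detected gene, its length, the percent of it that reads covered, and its RPKM. The aligner, counting program, build, annotation and use of strand were not stated in the labels or headers. The deposited counts summed to 9625763 reads for bone marrow and 8264712 for spleen, and a gene absent from one table was set to 0. The tables were joined on their gene identifiers, of which 16379 of 16428 had a RefSeq name.

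TMM factors over all genes (edgeR 4.0.16 in R 4.3.3) gave CPM, and log2(CPM + 1) in bone marrow minus that in spleen gave the log2 ratio, so changes of low genes are understated. Ratios past 2-fold describe these 2 libraries and were not tested. A fold is a plain CPM ratio, and its 95% interval is the exact conditional binomial one. RPKM intervals are exact Poisson, and ratios between genes have exact conditional odds ratio intervals. Intervals cover counting error only, since PCR reads that carry no molecular identifier need not be separate molecules. A count of 0 allows up to 3 reads. The procedure was tested on simulated data.

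The 10 genes, the 14 other lists and the gene pairs were chosen with earlier results of these data known. Genes to be named were the 10, further forkhead genes above the floor, from every other list at most 4 by size of ratio and 2 by abundance, and fixed anchor genes. Cat, Sod2, Cdkn1a, Cited2, Gadd45a, Gpr83, Foxo6, Ly6g, Mecom, Lin9, Lin37, Lin52, Lin54, Rbbp4 and the genes overlapping Foxp3 were named after their values were seen. So were Foxp2, Sesn1, Sesn3 and Trp53inp1. The alternatives used size factors from DESeq2 1.42.0, unscaled totals, TMM with marker genes left out, pseudocounts of 0.1 or 5, the floor removed or raised to 10 CPM, 4-fold in place of 2-fold, and deposited RPKM. RPKM over the longest coding transcript was added after seeing the data. A few genes and sequences of the lists are not reported here.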

Additional observations from a re-analysis of the deposited data

How the results depend on the processing

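The 8 alternatives that give a ratio changed the sign of no forkhead gene. A change of floor leaves a ratio as it is, and a change of pseudocount cannot turn its sign. Only the other scalings and deposited RPKM could have changed a sign. Over the 3 other scalings the log2 ratio of Foxo1 stayed between -2.50 and -2.42 and that of Foxm1 between 1.66 and 1.73. The sides of 2-fold changed for Foxn3 alone, with a pseudocount of 5. Foxp3 moved most, to -2.12 with a pseudocount of 5 and -4.20 with a pseudocount of 0.1, with 10 reads in the marrow. Under the 4-fold rule 0 of the 10 genes were higher in the marrow and 2 in the spleen, and over all measured genes 573 were higher in the marrow and 530 in the spleen. With a pseudocount of 5 the spleen was at least 2-fold higher in 1210 of all measured genes, against 1898 with a pseudocount of 1. With the longest coding transcript as length, chosen after seeing the data, Foxo4 and not Foxo3 led the FoxO genes in the marrow. The median of the stem and progenitor list rests on Mecom, at 0 in the spleen, and was 2.73 as fitted and 2.58 with Mecom at its bound. With 1 library per tissue no replicate could be left out. No paired analysis was possible because there was 1 library per tissue.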
